A study of Mus musculus with 10 samples.

Results

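Interferon-stimulated genes are described here across 10 mouse pancreatic cancer cell lines. Of 41 listed interferon-stimulated and nucleic acid sensing genes, all in the table, 36 met the rule for inclusion, which is 10 or more normalized counts in 3 or more lines. Over the whole table, 14075 of 49568 genes reached the same cut. The lines of interest, labelled KPCAf/f, were A1693, A1809, A1925, A2441 and A3992, and the lines they are set against, labelled KPC, were A1081, A1620, A1625, A2031 and A2032. KPC usually names mice that develop pancreatic tumours from alleles switched by Cre recombinase in the pancreas. The labels spell out no alleles and no Cre driver. KPCAf/f is taken to add floxed alleles of Arid1a, the chromatin remodelling gene in the series title. Both genotypes shared 1 culture medium (DMEM with serum and antibiotics), and no interferon or other agent is given for any line. Messenger RNA was sequenced in 1 library per line (n = 5 for each genotype). Nothing in the labels says whether each line came from its own mouse or is 1 clone, so that p-values measure only the spread between these lines.

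Cells sense stray viral or self nucleic acid through RNA helicases such as RIG-I and MDA5 and through the DNA sensor cGAS with its adaptor STING. These sensors switch on type I interferons, which signal through JAK kinases to a complex that contains Stat2 and Irf9. That complex binds the interferon-stimulated response element (ISRE) in front of a large set of antiviral genes. Interferon gamma works through a different element (GAS), and many carcinoma cells keep some of these genes on without infection.

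A sequence known to bind that complex was sought in the promoters of the listed genes. A match to the ISRE core GAAANNGAAA (TTTCNNTTTC on the other strand) was sought from 250 bases before to 50 bases after each RefSeq start on the mouse build GRCm38.p6. Of the 36 genes over the cut, 28 had a RefSeq promoter, and 15 of them (53.6%) held a core, against 3.99% of 27025 genes with a promoter. By window, 46.9% of the genes' 32 windows and 3.44% of all 32851 windows held one. The GAS motif TTCNNNGAA was in 8 of the 28 genes (28.6%), against 9.55% of all genes, and by window in 25.0% against 8.30%. Sites in 9 of the 15 genes are shown, chosen after their values were seen to cover the IFIT, IFITM and other genes described most fully below. Each is the nearest site before the start or, where none lay before it, the first after it. Sites run 5′ to 3′ on the strand of the gene, with the bases of the core or cores in capitals.
Ifit1, chr19:34640790-34640827, plus strand: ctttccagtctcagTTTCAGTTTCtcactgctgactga
Ifit3, chr19:34583393-34583430, plus strand: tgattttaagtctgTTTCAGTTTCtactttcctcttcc
Ifit3b, chr19:34607789-34607826, plus strand: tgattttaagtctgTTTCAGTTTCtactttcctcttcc
Isg15, chr4:156200861-156200910, minus strand: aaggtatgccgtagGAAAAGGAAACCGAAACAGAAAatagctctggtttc
Gbp2, chr3:142620590-142620627, plus strand: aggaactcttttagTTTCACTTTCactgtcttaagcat
Ifitm2, chr7:140955984-140956021, minus strand: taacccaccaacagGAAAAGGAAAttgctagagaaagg
Ifitm3, chr7:141010723-141010752, minus strand: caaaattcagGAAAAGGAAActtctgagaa
Bst2, chr8:71537573-71537616, minus strand: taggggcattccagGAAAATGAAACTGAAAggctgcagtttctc
Ddx58, chr4:40239804-40239833, minus strand: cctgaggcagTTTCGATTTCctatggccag

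The capitals in Isg15 join 3 overlapping cores and those in Bst2 join 2. Ifit3 and Ifit3b carried the same site, identical at 38 of 38 bases. The cores of Ifitm3 and Ddx58 lay 3 to 12 bases after the RefSeq start, and the one shown for Ifit1 at positions -85 to -76, counted from the start. The stretches before the start of Ifit1, Ifit3 and Ifit3b each hold 2 cores, of which the nearer to the start is shown. No core was found in the windows of Oasl1, Oasl2 or Ifitm1, which says only that these letters are not there. Genes with and without a core overlapped in how they differed between the genotypes: log2 fold changes, KPCAf/f over KPC, ran from -1.18 to 5.12 with a median of 1.36 over the 9 tested genes with a core, and from -1.83 to 3.54 with a median of 0.80 over the 13 tested genes whose windows had none.

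Reads assigned to genes ranged from 15124888 to 20419830 per line. Arid1a ranged from 1253 to 1785 normalized counts in KPCAf/f lines and from 820 to 3109 in KPC lines, so that the groups overlapped (log2 fold change -0.42, limma adjusted p = 0.563, exact two-sided permutation p = 0.151 over 252 splits). The log2 fold change was -0.72 without A1620 (limma adjusted p = 0.0857), and it passed the threshold after a correction for transcript length (-0.83, limma adjusted p = 0.0433). Gene totals do not resolve a floxed exon, so that they do not check the labels. Fibroblast markers summed to 14627 to 88355 normalized counts in KPCAf/f lines and 62.9 to 173 in KPC lines. Col1a1, Col1a2, Col3a1, Pdgfra and Pdgfrb were higher in every KPCAf/f line than in every KPC line. Other markers of that list were not: Fap was under 10 in every line, and Thy1 (2.53 to 3.37) and Lum (0.843 to 2.46) were low in A1809, A1925 and A2441. Dcn was at 2.46 in A1809. Epithelial markers summed to 5910 to 113264 in KPCAf/f lines and 116328 to 266096 in KPC lines. KPCAf/f line A1693 stood apart, with 2.70 normalized counts of Pdx1 and 10.8 of Cdh1. Epcam was low there (15.3) but also in A1925 (37.9), A2441 (38.2) and KPC line A1620 (34.4). A1693 still had 2466 of Krt8, 2808 of Krt18 and 608 of Krt19, each the lowest of the 10 lines. The low Pdx1 and Cdh1 leave its label as a pancreatic cancer line uncertain, and these markers alone do not settle it. KPC line A1620 stood apart by transcript length, its deviation falling by 0.65 log2 per doubling of length, against slopes of 0.10 to 0.15 in KPCAf/f lines and -0.02 to 0.04 in the other KPC lines. Leukocyte markers summed to 107 to 294 in KPCAf/f lines and 48.1 to 131 in KPC lines, and none of the 10 was at 0 in every line. Of these, 6 (Adgre1, Itgam, Tyrobp, Fcer1g, Cd3e and Cd79a) were under 10 in every line. Cd68 had 31.3 to 293, highest in A1693. Csf1r reached 185 (A1809), Laptm5 78.4 (A3992) and Ptprc 11.3 (A2032). Endothelial markers summed to 8.10 to 668 in KPCAf/f lines and 7.22 to 438 in KPC lines. Pecam1 and Emcn were under 10 in every line, Cdh5 reached 644 in A2441 and 415 in A1081, Kdr 73.8 (A2031) and Tek 36.1 (A3992). Of 4 markers of plasmacytoid dendritic cells, which make much interferon, Siglech and Ccr9 were under 10 in every line, and Spib reached at most 11.2. Tcf4, also used by other cells, set the list's sum of 794 to 4525 in KPCAf/f lines and 379 to 915 in KPC lines, with 4525 in A1693. The part of these marker levels in the results below was not tested.

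Most of the tested interferon-stimulated genes had positive log2 fold changes, KPCAf/f over KPC, but few differences passed the test. Of the 36, 27 were expressed widely enough to be tested (10 or more normalized counts in 5 or more lines), among 13089 genes. By limma with Benjamini-Hochberg adjustment, 1 rose in KPCAf/f lines, the membrane restriction factor Ifitm3, against 1.36% of all tested genes called higher. In the other direction 1 fell, the OAS-like gene Oasl1, against 0.390% of all tested genes called lower. At an unadjusted p under 0.05, 15 of the 27 were higher and 1 lower in KPCAf/f lines, against 8.39% and 6.26% of all tested genes. Log2 fold changes were positive for 21 and negative for 6, with 49.2% of all tested genes positive. Their median was 0.95, range -1.83 to 5.12, and the median over all tested genes was -0.01. No gene was higher in every KPCAf/f line than in every KPC line (2.84% of all tested genes were), and 1, Oasl1, was lower in every one (1.69% of all tested genes were). In bulk RNA, fewer cells that express a gene and less RNA per cell cannot be told apart.

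The count depends on the test. On the reads recovered from the deposited values, edgeR called 0 of the 27 higher and 0 lower (1.11% and 0.206% of all tested genes), and limma-voom called 0 higher and 1 lower (0.581% and 0.222%). DESeq2 called 11 higher and 1 lower (3.98% and 1.60% of all tested genes). The 11 were Ddx58, Tmem173, Irf9, Ifit2, Oasl2, Gbp2, Ifitm1, Ifitm2, Ifitm3, Isg15 and Ifi27. Without A1809, limma called 2 higher, Irf1 and Gbp2, and 1 lower, Oasl1 (1.73% and 0.695% of all tested genes). Without both A1620 and A1693, it called 0 in either direction (1.08% and 0.336% of all tested genes), and the median log2 fold change was 0.71.

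**Figure D1:**
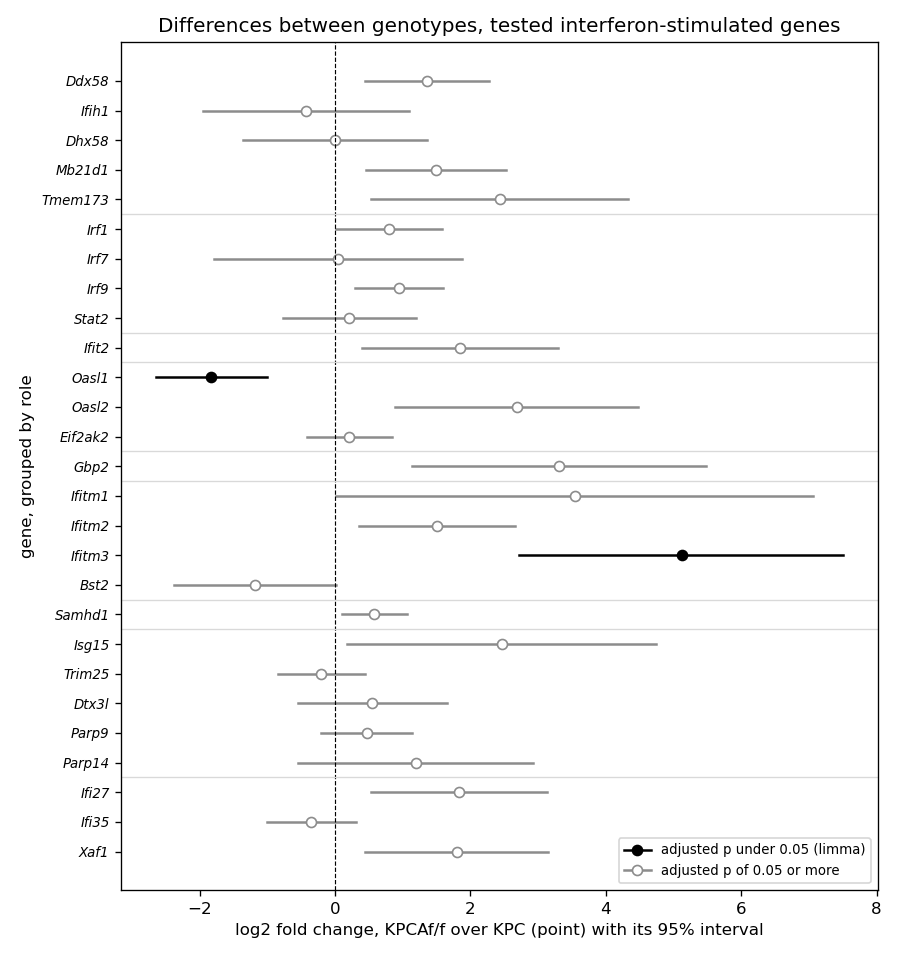
Log2 fold changes (KPCAf/f over KPC) in log2(normalized count + 1) for the 27 tested genes, grouped by role from nucleic acid sensing at the top, with 95% intervals from limma (5 lines per genotype). Filled points, Ifitm3 at 5.12 and Oasl1 at -1.83, have an adjusted p under 0.05, and 21 of the 27 points lie right of 0.

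The remaining 9 genes over the cut (Ifit1, Ifit3, Ifit3b, Usp18, Oas1a, Oas3, Mx1, Gbp3 and Rtp4) reached 10 normalized counts in 3 or 4 lines and were not among those tested. Ifit1, Mx1 and Gbp3 were under 10 in every KPC line, and so met the cut through KPCAf/f lines alone and could only be higher there. In a limma fit of all 14075 genes over the cut, 1 of the 36 was called higher and 1 lower, Ifitm3 and Oasl1 again, against 1.91% and 0.448% of all genes fitted. At an unadjusted p under 0.05 there, 18 were higher and 1 lower (9.63% and 6.18% of all genes fitted), 30 log2 fold changes were positive (50.2% of all), and the groups were separate for 1 higher and 1 lower gene (3.34% and 1.63% of all). These counts include genes that could differ in 1 direction alone. Just inside the cut were Oas1a and Usp18, at 10 or more in 3 lines. Just outside were Mx2, Rsad2, Cmpk2 and Ifi44, at 10 or more in A1693 alone. Oas2 reached 10 in no line. These 5 genes had their highest value in A1693, where Rsad2, the antiviral radical enzyme viperin, had 118 normalized counts and at most 6.74 in any other line.

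The lines differed in their standing over these genes. The 36 include Ifit1, Mx1 and Gbp3, which met the cut through KPCAf/f lines alone, and A1693 was highest for Ifit1 and Gbp3. KPCAf/f line A1693 was the highest of the 10 lines for 14 of the 36 genes (38.9%), against 12.5% of all genes over the same cut, and it was the lowest for 0. Its median deviation from the mean of the 10 lines was 1.39 on the log2 scale. The other KPCAf/f lines had median deviations of 0.16 (A1809), 0.51 (A1925), -0.04 (A2441) and 0.46 (A3992). In KPC lines the median deviation was -0.06 in A1081, -1.06 in A1620, -0.23 in A1625, -0.74 in A2031 and -0.56 in A2032. KPC line A2031 was the lowest for 8 of the 36 genes (22.2%), against 6.61% of all genes, and A1620 for 10 (27.8%), against 26.2% of all genes. Median deviations over all genes lay between -0.05 and 0.04. The median SD of these genes on the log2 scale was 1.21 in KPCAf/f lines and 1.05 in KPC lines. Over all genes over the cut it was 0.47 and 0.59. The comparison was not matched for expression level, and values of low genes rest on few reads. Ifit3b, a low gene, had an SD of 2.33 in KPCAf/f lines. Among more abundant genes the SD there was 0.30 for Eif2ak2 and 0.38 for Samhd1, but 2.16 for Ifitm3.

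**Figure D2:**
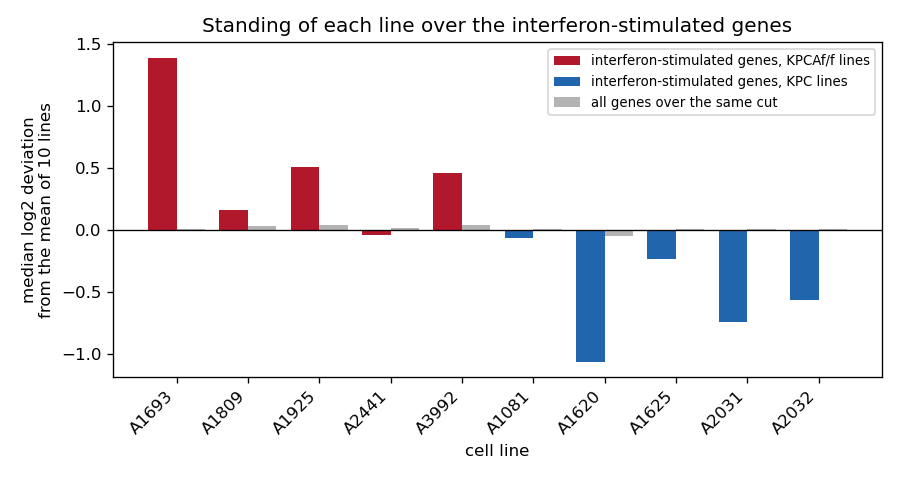
Median over the 36 interferon-stimulated genes of the log2(normalized count + 1) deviation from each gene's mean over the 10 lines, by line, KPCAf/f lines in red and KPC lines in blue, with the same median over all genes over the cut in grey. A1693 stands highest at 1.39 and A1620 lowest at -1.06, while KPCAf/f line A2441 (-0.04) and KPC line A1081 (-0.06) lie side by side.

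**Figure D3:**
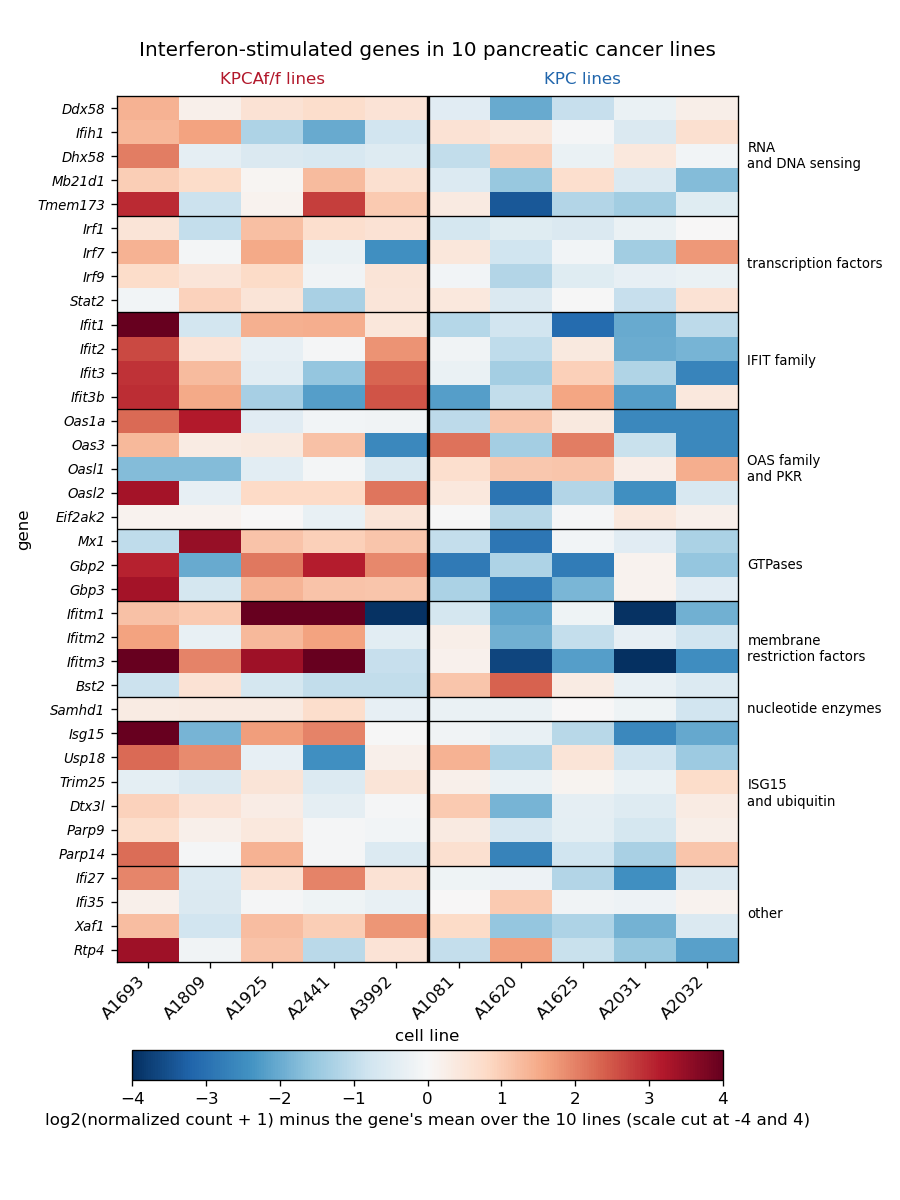
Deviation of log2(normalized count + 1) from the gene's mean over the 10 lines for the 36 genes, by role, with KPCAf/f lines on the left and KPC lines on the right (colours stop at -4 and 4). Red marks a line above the gene's mean: A1693 is red for most genes, with Oasl1, Mx1 and Bst2 among the exceptions, and Oasl1 is blue to near white across the KPCAf/f lines and red across the KPC lines.

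Among the sensors, the RNA helicase RIG-I (Ddx58), the DNA sensor cGAS (Mb21d1) and its adaptor STING (Tmem173) had higher means in KPCAf/f lines, none past the limma threshold. Ddx58 had 594, 260, 341, 369 and 329 normalized counts in KPCAf/f lines, given here and below in the order A1693, A1809, A1925, A2441 and A3992. It had 166, 55.6, 119, 190 and 270 in KPC lines, always in the order A1081, A1620, A1625, A2031 and A2032. KPC line A2032 (270) lay just above the lowest KPCAf/f line, A1809 (260), and no other KPC line reached the KPCAf/f lines. The means were 379 ± 127 in KPCAf/f lines and 160 ± 80.0 in KPC lines (SD, n = 5 each), with a log2 fold change of 1.36 (SE 0.42, limma adjusted p = 0.154).

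Mb21d1 had 224, 189, 120, 272 and 178 normalized counts in KPCAf/f lines and 76.7, 38.4, 182, 74.9 and 33.0 in KPC lines. KPC line A1625 fell within the KPCAf/f range, and the other KPC lines lay below it (log2 fold change 1.49, SE 0.47, limma adjusted p = 0.163). Tmem173 had 521, 36.0, 71.7, 451 and 137 normalized counts in KPCAf/f lines, against 84.3, 5.30, 28.4, 24.6 and 46.4 in KPC lines. Its KPCAf/f lines spread more than 10-fold, with A1693 and A2441 high and A1809 below KPC lines A1081 and A2032 (log2 fold change 2.43, SE 0.87, limma adjusted p = 0.225, DESeq2 adjusted p = 0.0164). By limma the other RNA helicases had log2 fold changes at or below 0, -0.43 for Ifih1 (MDA5) and -0.00 for Dhx58 (LGP2) (limma adjusted p = 0.791 and 0.999). LGP2 regulates both RIG-I and MDA5. Means of these genes were also higher in KPCAf/f lines, 85.0 against 75.7 for Ifih1 and 25.3 against 20.0 for Dhx58. With edgeR their log2 fold changes were 0.17 and 0.34. Ifih1 split the KPCAf/f lines, with 158 and 190 normalized counts in A1693 and A1809 but 14.6 to 36.1 in A1925, A2441 and A3992, against 41.3 to 97.9 in KPC lines. Dhx58 was highest in A1693, at 77.4, with 11.2 to 13.9 in the rest of the KPCAf/f lines and 8.52 to 35.8 in KPC lines.

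Of the transcription factors, Irf9, the DNA-binding subunit of the interferon-activated complex, had 353, 300, 363, 192 and 307 normalized counts in KPCAf/f lines and 199, 94.0, 152, 168 and 176 in KPC lines. The groups overlapped only through A2441 (192) and A1081 (199). Its means were 303 ± 67.9 in KPCAf/f lines and 158 ± 39.4 in KPC lines (SD, n = 5 each; log2 fold change 0.95, SE 0.29, limma adjusted p = 0.157, DESeq2 adjusted p = 0.0206). Irf1, an activator induced by interferon gamma, had 852, 310, 1376, 954 and 907 normalized counts in KPCAf/f lines, against 371, 434, 404, 503 and 603 in KPC lines. A1809 was the lowest of the 10 lines, and the other KPCAf/f lines lay above all KPC lines. With all lines the log2 fold change of Irf1 was 0.80 (SE 0.36, limma adjusted p = 0.333), and without A1809 the adjusted p was 0.0329.

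Stat2, the partner of Irf9, had 332, 683, 513, 145 and 497 normalized counts in KPCAf/f lines and 474, 238, 356, 187 and 536 in KPC lines, with overlapping groups (log2 fold change 0.21, limma adjusted p = 0.841). Irf7, the factor that amplifies interferon production, had few counts in all lines, 2.64 to 56.5 normalized counts in KPCAf/f lines and 6.71 to 66.0 in KPC lines (log2 fold change 0.04, limma adjusted p = 0.985).

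The IFIT genes, whose products bind viral RNA and block its translation, were high in A1693. Ifit1 had 378, 4.09, 21.9, 22.5 and 10.6 normalized counts in KPCAf/f lines and 2.84, 3.97, 0, 1.12 and 3.09 in KPC lines. Every KPCAf/f line was above every KPC line, by a narrow margin of 4.09 in A1809 against 3.97 in A1620, where 1 read is worth about 1 normalized count. Its mean of 87.4 ± 163 in KPCAf/f lines (SD, n = 5) rests on A1693, without which it was 14.8 ± 8.99, against 2.20 ± 1.61 in KPC lines. In the fit of all genes over the cut its log2 fold change was 3.23 (SE 1.03, limma adjusted p = 0.148). Ifit1 met that cut through KPCAf/f lines alone, so that the cut itself set its direction. It was the gene counted as higher without overlap in that fit.

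Ifit2 had 981, 232, 125, 153 and 547 normalized counts in KPCAf/f lines, against 143, 76.8, 205, 39.1 and 42.3 in KPC lines. A1693 and A3992 were high, and A1925 and A2441 lay within the KPC range (log2 fold change 1.85, SE 0.66, limma adjusted p = 0.225, DESeq2 adjusted p = 0.0432). Ifit3 was also highest in A1693 and A3992, with 93.6, 29.5, 8.43, 3.37 and 62.6 normalized counts in KPCAf/f lines and 9.47, 3.97, 23.5, 4.47 and 1.03 in KPC lines. In A2441 Ifit3 was below every KPC line but A2032, whereas Ifit1 was above every KPC line there. Ifit3 and its neighbour Ifit3b share 51.24% of the 50-base stretches of Ifit3, so that reads could be split between them. Ifit3b had 0 to 35.1 normalized counts in KPCAf/f lines and 0 to 12.7 in KPC lines.

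Within the OAS family, whose active members make oligoadenylates that switch on RNase L, log2 fold changes had both signs. Oasl1 (chr5:114923240-114937915, GRCm38), an OAS-like gene without that enzyme activity and in mice a repressor of Irf7 translation, had 194, 194, 484, 608 and 411 normalized counts in KPCAf/f lines. In KPC lines it had 1014, 1366, 1379, 772 and 1779. The highest KPCAf/f line, A2441 (608), was below the lowest KPC line, A2031 (772), so that the groups did not overlap. Oasl1 averaged 378 ± 182 in KPCAf/f lines and 1262 ± 385 in KPC lines (SD, n = 5 each), a log2 fold change of -1.83 (SE 0.37, 95% interval -2.65 to -1.01, limma adjusted p = 0.0328). With DESeq2 the adjusted p was 4.31e-04, with limma-voom 0.0447 and with edgeR 0.0522. After a correction for transcript length the log2 fold change was -1.75 (limma adjusted p = 0.0226). The limma call was lost without A1081 (0.0566), A1620 (0.0741), A1625 (0.0827), A2032 (0.0849), A1693 (0.0619) or A3992 (0.0508), and the log2 fold change stayed between -2.04 and -1.63 whichever line was left out.

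Its neighbour on chromosome 5, Oasl2, which makes oligoadenylates in mice, had 176, 13.1, 29.5, 29.2 and 75.8 normalized counts in KPCAf/f lines and 22.7, 1.32, 6.85, 2.24 and 10.3 in KPC lines. KPC line A1081 overlapped A1809 and no other KPCAf/f line. The log2 fold change of Oasl2 was 2.69 (SE 0.82, limma adjusted p = 0.151, DESeq2 adjusted p = 0.0251), opposite in sign to that of Oasl1. Thus A1693 had the highest Oasl2 value of the 10 lines and, with A1809, the lowest Oasl1 value.

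The synthetase Oas1a had 27.9, 52.4, 3.37, 4.50 and 4.41 normalized counts in KPCAf/f lines and 1.89, 11.9, 6.85, 0 and 0 in KPC lines, so that A1693 and A1809 alone stood above the KPC range. Oas1a shares 57.57% of its 50-base stretches with Oas1g. Oas3 stayed between 0 and 13.5 normalized counts in KPCAf/f lines and 0 and 25.6 in KPC lines. Eif2ak2, the kinase PKR that halts translation on sensing double-stranded RNA, was among the steadier genes, at 1082, 1062, 984, 795 and 1407 normalized counts in KPCAf/f lines and 954, 453, 942, 1311 and 1131 in KPC lines (log2 fold change 0.21, limma adjusted p = 0.744).

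None of the interferon-induced GTPases passed the limma threshold. Gbp3 and Mx1 met the cut through KPCAf/f lines alone, and Mx2 did not meet it. Gbp2, a guanylate-binding protein that coats pathogen vacuoles, had 230, 5.73, 118, 242 and 103 normalized counts in KPCAf/f lines and 2.84, 10.6, 2.94, 29.1 and 8.25 in KPC lines. A1809 lay within the KPC range, and the other KPCAf/f lines were at least 103, above the highest KPC line at 29.1. The log2 fold change of Gbp2 with all lines was 3.31 (SE 0.99, limma adjusted p = 0.145, DESeq2 adjusted p = 8.28e-04). The limma adjusted p was 0.00822 without A1809 and 0.144 to 0.288 with any other single line left out.

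Mx1, a dynamin-like GTPase, had other exceptions, with 2.70, 81.8, 15.2, 13.5 and 15.0 normalized counts in KPCAf/f lines and 2.84, 0, 5.87, 4.47 and 2.06 in KPC lines. A1809 was highest, and A1693, highest for many other genes, lay within the KPC range. Gbp3 had 69.3, 3.27, 16.9, 14.6 and 14.1 normalized counts in KPCAf/f lines, against 1.89, 0, 0.978, 6.71 and 4.12 in KPC lines. Only A1809 overlapped the KPC lines. In the fit of all genes over the cut, the log2 fold changes were 2.27 for Mx1 (SE 0.83, limma adjusted p = 0.212) and 2.49 for Gbp3 (SE 0.80, limma adjusted p = 0.151). For both, the cut itself set the direction.

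The membrane restriction factors gave the one gene that rose. Ifitm3 (chr7:141009586-141010770, GRCm38), which stops enveloped viruses from fusing out of endosomes, had 2078, 516, 1370, 2751 and 67.8 normalized counts in KPCAf/f lines. In KPC lines it had 146, 9.27, 27.4, 4.47 and 22.7. A1693, A1809, A1925 and A2441 stood above all KPC lines, and A3992 lay below KPC line A1081, so that the groups overlapped through 1 line. Ifitm3 averaged 1356 ± 1099 in KPCAf/f lines and 41.9 ± 58.8 in KPC lines (SD, n = 5 each), a log2 fold change of 5.12 (SE 1.09, 95% interval 2.72 to 7.51, limma adjusted p = 0.0420). The adjusted p was 3.30e-06 with DESeq2, 0.0607 with edgeR and 0.199 with limma-voom. After a correction for transcript length the log2 fold change was 5.62 (limma adjusted p = 0.0337). The limma call was lost without A1620 (0.0982), A1625 (0.0827), A2031 (0.104), A2032 (0.0886), A1693 (0.0862), A1809 (0.0521), A1925 (0.104) or A2441 (0.104). It remained without A1081 (0.0231) or A3992 (0.00864). The log2 fold change stayed between 4.61 and 5.99 in these fits.

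Per length of transcript, Ifitm3 averaged 2001 normalized counts per kb in KPCAf/f lines and 61.8 in KPC lines. Ifitm2 averaged 1214 per kb in KPCAf/f lines and 399 in KPC lines, where Bst2 (601), Oasl1 (484) and Trim25 (431) stood above both. Ifitm2, its close relative, had 1191, 318, 968, 1207 and 291 normalized counts in KPCAf/f lines and 458, 102, 201, 315 and 231 in KPC lines. A1693, A1925 and A2441 stood above all KPC lines, while A1809 and A3992 lay within the KPC range (log2 fold change 1.51, SE 0.53, limma adjusted p = 0.217, DESeq2 adjusted p = 0.0374). Ifitm2 overlaps a gene model on the same strand with which it shares 36.14% of its 50-base stretches, so that its level is uncertain.

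Ifitm1 had 34.2, 31.1, 386, 943 and 0 normalized counts in KPCAf/f lines and 8.52, 2.65, 12.7, 0 and 3.09 in KPC lines. It was high in A1925 and A2441 and without a read in A3992, the KPCAf/f line in which Ifitm3 and Ifitm2 were also lowest. This spread, an SD of 3.85 on the log2 scale in KPCAf/f lines, left its log2 fold change of 3.54 uncertain (SE 1.60, limma adjusted p = 0.337, DESeq2 adjusted p = 7.85e-04).

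Tetherin (Bst2), which holds budding virions at the cell surface, ran the other way, with 150, 400, 166, 136 and 137 normalized counts in KPCAf/f lines and 587, 1382, 339, 220 and 185 in KPC lines. Apart from A1809, the KPCAf/f lines lay below every KPC line. The log2 fold change of Bst2 was -1.18 (SE 0.55, limma adjusted p = 0.350). The highest value was in A1620, the line with raised short transcripts, and after a correction for transcript length the log2 fold change was -0.73 (limma adjusted p = 0.437).

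**Figure D4:**
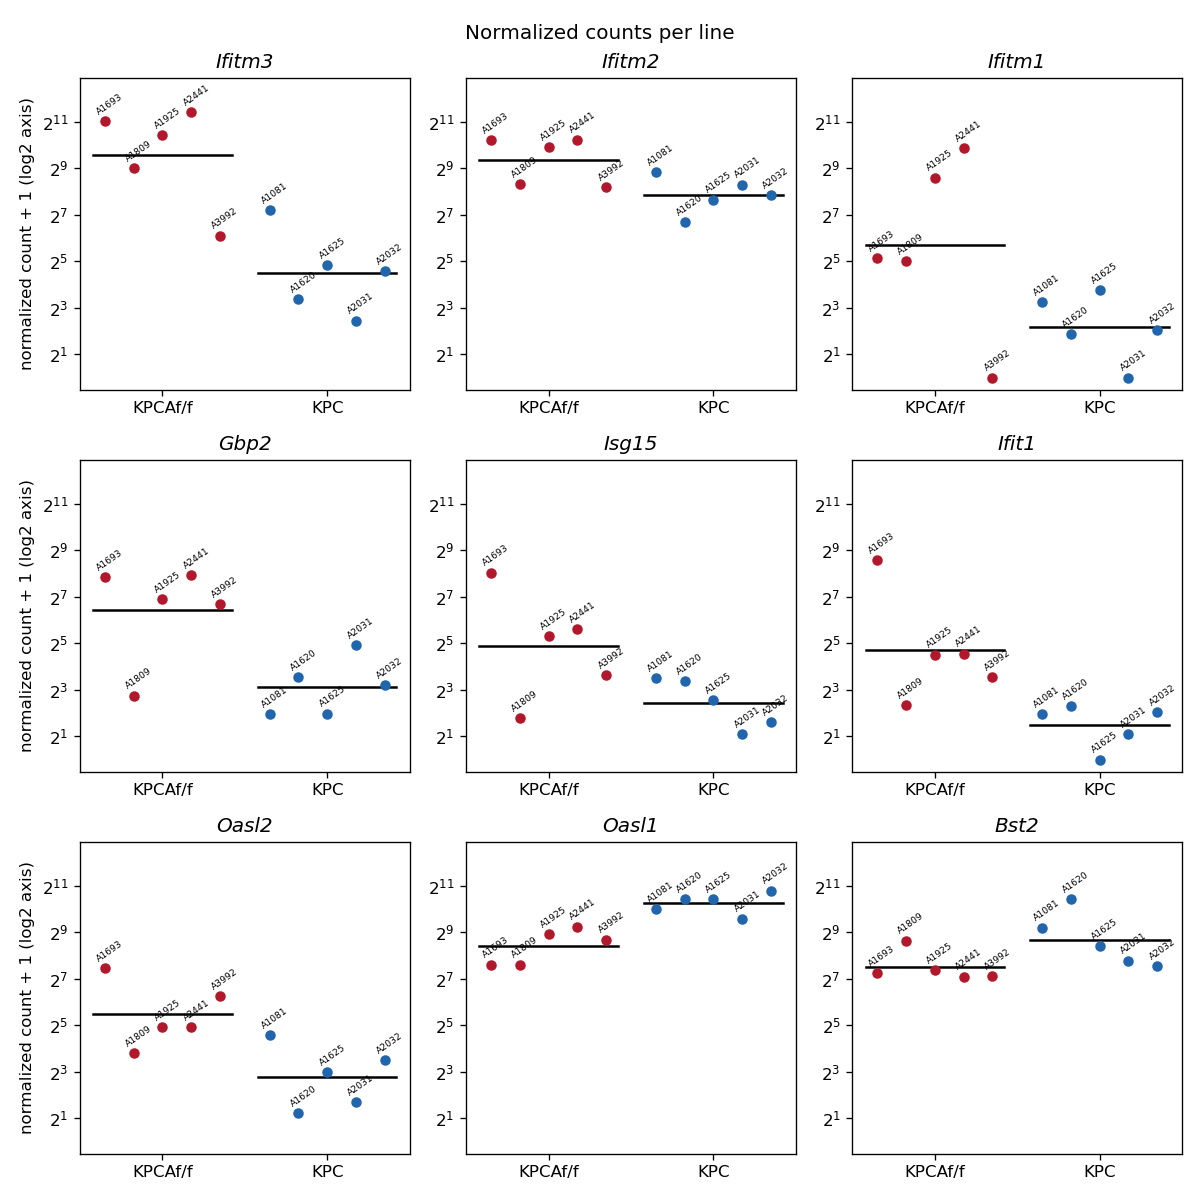
Normalized count plus 1 on a log2 axis for 9 interferon-stimulated genes, 1 point per line, KPCAf/f in red on the left and KPC in blue on the right, with a bar at the mean of the log2 values. For Ifitm3 only A3992 (67.8) among KPCAf/f lines lies in the KPC range, for Gbp2 only A1809 (5.73), and for Oasl1 the KPCAf/f lines (194 to 608) all lie below the KPC lines (772 to 1779).

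Samhd1, which breaks down deoxynucleotides and so starves reverse transcription, had 2387, 2432, 2444, 3085 and 1510 normalized counts in KPCAf/f lines and 1560, 1570, 1909, 1662 and 1120 in KPC lines. A3992 lay within the KPC range and the other KPCAf/f lines above it (log2 fold change 0.58, SE 0.22, limma adjusted p = 0.248).

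The ubiquitin-like modifier Isg15 had 262, 2.46, 38.8, 48.3 and 11.5 normalized counts in KPCAf/f lines and 10.4, 9.27, 4.89, 1.12 and 2.06 in KPC lines. A1693 was far above the rest, A1925 and A2441 were intermediate, and A1809 lay within the KPC range. The mean of 72.6 ± 108 in KPCAf/f lines (SD, n = 5) was 25.3 ± 21.8 without A1693, against 5.55 ± 4.18 in KPC lines (log2 fold change with all lines 2.46, SE 1.04, limma adjusted p = 0.307, DESeq2 adjusted p = 0.0124). Usp18, which removes Isg15 from proteins and dampens receptor signalling, had 0 to 25.2 normalized counts in KPCAf/f lines and 1.03 to 13.3 in KPC lines.

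The ADP-ribosylating and ubiquitin enzymes of the group overlapped between the genotypes. Parp9 had 394, 280, 328, 238 and 226 normalized counts in KPCAf/f lines and 315, 152, 187, 149 and 288 in KPC lines (log2 fold change 0.47, SE 0.30, limma adjusted p = 0.496). Its partner ligase Dtx3l, which overlaps it on the opposite strand over 458 exonic bases, had 141 to 338 normalized counts in KPCAf/f lines and 49.0 to 368 in KPC lines (log2 fold change 0.55, limma adjusted p = 0.616). Parp14 had 191, 38.5, 104, 38.2 and 26.4 normalized counts in KPCAf/f lines and 62.5, 5.30, 22.5, 15.6 and 85.6 in KPC lines, with A1693 and A1925 above the KPC range (log2 fold change 1.20, limma adjusted p = 0.503). Trim25, the ubiquitin ligase that activates RIG-I, was expressed in all lines without separation, at 1724, 1496, 3176, 1519 and 3171 in KPCAf/f lines and 2564, 1858, 2432, 1851 and 3699 in KPC lines (log2 fold change -0.20, limma adjusted p = 0.765).

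Of the remaining genes, Ifi27, a small interferon-induced membrane protein, had 547, 94.9, 208, 559 and 210 normalized counts in KPCAf/f lines and 124, 121, 60.7, 24.6 and 92.8 in KPC lines. A1809 alone overlapped the KPC lines (log2 fold change 1.83, SE 0.59, limma adjusted p = 0.173, DESeq2 adjusted p = 0.0184). Xaf1, an antagonist of the apoptosis inhibitor XIAP, had 115, 27.8, 114, 96.7 and 167 normalized counts in KPCAf/f lines, against 81.4, 15.9, 19.6, 12.3 and 32.0 in KPC lines. Again A1809 alone lay in the KPC range (95% interval of the log2 fold change 0.45 to 3.14, limma adjusted p = 0.204).

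Rtp4, a receptor chaperone, had 95.4, 7.37, 19.4, 3.37 and 12.3 normalized counts in KPCAf/f lines and 3.79, 27.8, 3.91, 2.24 and 1.03 in KPC lines, with A1693 high and A1620 above the other KPCAf/f lines. Ifi35 had 294, 170, 246, 225 and 208 normalized counts in KPCAf/f lines and 255, 529, 230, 220 and 281 in KPC lines, where A1620 was highest (log2 fold change -0.35, limma adjusted p = 0.600).

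The interferons themselves had almost no reads. Over all 10 lines the 14 interferon genes looked up had 15 reads, 4 in KPCAf/f lines and 11 in KPC lines, with at most 5 in any line. Ifnb1 had 0 reads in all lines, which at a floor of 3 reads in 183863541 assigned reads limits its level but does not show that it is absent.

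Of 126 further genes of the pathway listed for their role, 125 were in the table and 82 were tested. By limma 0 of the 82 were called higher and 0 lower. At an unadjusted p under 0.05, 12 were higher and 5 lower in KPCAf/f lines, against 8.39% and 6.26% of all tested genes. DESeq2 called 3 higher (Tlr2, Cxcl10 and Shisa5) and 0 lower, against 3.98% and 1.60% of all tested genes, and edgeR and limma-voom called 0. Log2 fold changes were positive for 48 and negative for 34, with a median of 0.15. Groups did not overlap for 4 genes, Tlr2, Trim34a, Znfx1 and Shisa5, all higher in KPCAf/f lines (2.84% of all tested genes were higher and 1.69% lower without overlap), of which Trim34a and Znfx1 are named after their values were seen.

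Shisa5, an interferon-induced membrane protein, came closest to the threshold, with 1851, 2403, 2050, 1595 and 1856 normalized counts in KPCAf/f lines and 699, 795, 1003, 1235 and 1407 in KPC lines. The groups were separate. Its log2 fold change was 0.96 (SE 0.22), with a limma adjusted p of 0.0595. The limma adjusted p was 0.0449 without KPC line A2032 and 0.0830 to 0.139 with any other single line left out. Tlr2, a receptor for bacterial lipoproteins, had 231, 133, 119, 232 and 152 normalized counts in KPCAf/f lines, against 60.6, 19.9, 112, 86.0 and 29.9 in KPC lines. Its groups were also separate, with A1925 (119) close to A1625 (112) (log2 fold change 1.68, SE 0.49, limma adjusted p = 0.137, DESeq2 adjusted p = 0.0430).

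Trim14, a mitochondrial adaptor of RNA sensing, ran lower, with 4.50, 19.6, 5.90, 10.1 and 0 normalized counts in KPCAf/f lines and 33.1, 14.6, 55.8, 31.3 and 43.3 in KPC lines, where A1620 alone overlapped A1809 (log2 fold change -2.45, SE 0.76, limma adjusted p = 0.158). Epsti1 had 27.0, 25.4, 17.7, 23.6 and 15.9 normalized counts in KPCAf/f lines and 17.0, 5.30, 0, 8.94 and 1.03 in KPC lines. Its groups overlapped through A3992 and A1081 (log2 fold change 2.26, SE 0.75, limma adjusted p = 0.193).

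The receptor subunits of both interferon types were expressed in every line. The type I subunit Ifnar1 had 1263 to 1926 normalized counts in KPCAf/f lines and 809 to 1424 in KPC lines (log2 fold change 0.50, SE 0.21, limma adjusted p = 0.313). The interferon gamma subunit Ifngr1 had 619, 1457, 2620, 811 and 5633 normalized counts in KPCAf/f lines and 3177, 4224, 3334, 3118 and 5280 in KPC lines (log2 fold change -1.22, SE 0.52, limma adjusted p = 0.313). A3992 was the highest of the 10 lines for Ifngr1, and the other KPCAf/f lines lay below every KPC line. Among the feedback genes the log2 fold change of Socs3, an inhibitor of JAK kinases, was -0.74 (limma adjusted p = 0.291). The adaptor of RIG-I and MDA5, Mavs, had a log2 fold change of 0.37 (limma adjusted p = 0.432).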

How the data were processed

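The submitters' processing notes name STAR 2.5.2b and Trimmomatic 0.36 for reads from bcl2fastq 1.8.4, with featureCounts of Subread 1.5.0p3, R 3.3.2 and DESeq2 1.14.1, and list builds GRCm38.p5 and mm9 without a role. The library kit was stranded, per the labels' protocols, while for the counting neither annotation nor strand setting is given in the sources used here. What the authors deposited is a signal per gene and line: read counts divided by a size factor per library. Dividing by what 1 read is worth returned whole reads within 0.001 read for 100.0% of values. The lowest chi-square per degree of freedom between libraries was 37.1, so that no library copied another.

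The genes, lists and tests were chosen with earlier results of these data known. Genes at 10 or more in at least 5 lines were tested with limma 3.58.1 in R 4.3.3, with an intensity trend, on log2(normalized count + 1), two-sided, adjusted over all 13089 genes. This scale understates the change of low genes. Called means an adjusted p under 0.05. The same genes were tested with DESeq2 1.42.0, edgeR 4.0.16 and limma-voom on the reads so recovered, a use of a count model on normalized values made possible by the whole reads. Values in full are given for up to 3 genes per role with the smallest limma p and the most abundant, and for up to 3 pathway genes per list, with some lists given none. Bst2 falls outside that rule and was given in full after its values were seen. Coordinates and lengths of genes are those of GENCODE M21 on GRCm38 (95.5% of the symbols matched), and promoters are from RefSeq. Other settings were other pseudocounts (0.5 and 10), filters and scalings, a loess correction for transcript length (span 0.3), and single lines or A1620 with A1693 left out. The fits were tested on simulated data. Some genes of the pathway are not reported here.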

Additional observations from a re-analysis of the deposited data

Results flagged for a closer look

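In 72 groups of 5 lines (36 genes in each genotype), 5 had a highest or lowest line set apart from the others by more than Dixon's critical value of 0.71 on the log2 scale. That is 6.94%, where chance gives about 1 in 20. Dhx58 had 77.4 normalized counts in KPCAf/f line A1693, where the rest of its genotype had 11.2 to 13.9. Oas3 had 0 in KPCAf/f line A3992 and 6.55 to 13.5 in the others of its genotype. Gbp2 had 5.73 in KPCAf/f line A1809, against 103 to 242 in the others. Bst2 had 400 in the same line, against 136 to 166 in the rest of the KPCAf/f lines. Ifi35 had 529 in KPC line A1620, against 220 to 281 in the other KPC lines.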

How the results depend on the processing

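No paired analysis was possible because the labels give no pairing of the lines. The count of interferon-stimulated genes called higher (1 by limma) was 0 with edgeR or limma-voom, 11 with DESeq2, 0 without A1620 and A1693, and 0 to 2 with each line left out in turn. The count called lower (1 by limma) was 0 with edgeR, 0 without A1620 and A1693, and 0 to 1 with each line left out. Of the pathway genes outside the group (0 called higher by limma), DESeq2 called 3, and 0 to 1 were called with each line left out. Why these counts moved was not tested, beyond the fewer lines where lines were left out. The median log2 fold change kept its sign, between 0.71 and 1.42. The difference in Arid1a was -0.83 after the length correction, past the threshold (limma adjusted p = 0.0433). Log2 fold changes near 0 changed sign. For Dhx58 it was 0.03 with a pseudocount of 10, 0.00 with TMM scaling, 0.34 with edgeR and DESeq2, 0.03 with limma-voom, 0.05 after the length correction, and -0.51 to 0.24 with single lines left out. For Irf7 it was -0.20 with quantile normalization, -0.01 with limma-voom and after the length correction, -0.50 without A1620 and A1693, and -0.33 to 0.66 with single lines left out. For Ifih1 it was 0.17 with edgeR, 0.16 with DESeq2 and -0.88 to 0.02 with single lines left out. For Eif2ak2 it was -0.04 (without A1620) to 0.35 with single lines left out and -0.05 without A1620 and A1693, where Dtx3l was at -0.00. With 5 lines per genotype and values under 10 resting on few reads, low genes such as Oas3 and Usp18 allow no firm comparison.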
